A study of Mus musculus with 10 samples.

Results

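The cytosolic ribosomal protein genes were taken as the protein-coding genes named Rpsa, Rplp0, Rplp1 or Rplp2, or with Rps or Rpl followed by a digit, without the S6 kinases named Rps6k. They numbered 94 of the 54532 genes in the table, 35 with small subunit names (Rps and Rpsa) and 59 with large subunit names (Rpl and Rplp). The rule is one of names and used no measured value. It also took Rps19bp1, whose product binds Rps19 and is no part of the ribosome, and 8 genes named as pseudogene copies.

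RNA was measured in epithelial cells sorted by FACS from the small intestine of 5 litter-matched, 10-week-old Gucy2c-GFP mice of the CD1/ICR strain, in which the promoter of Gucy2c, the gene of the intestinal receptor guanylyl cyclase C, drives GFP. The brightest cells formed the GUCY2Chi group and the bulk of the epithelium, of medium brightness, the GUCY2Cmed group. Each library came from 20000 cells, and the 5 libraries of each group carry the same mouse numbers, 2, 7, 12, 14 and 15. All mice carried the reporter and none was treated, so the groups differ in GFP gate and not in genotype. The gate sets GFP brightness, not cell type, and a library is a mixture of the cells in its gate.

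Libraries held 10903958 to 15307932 counts on genes. Of 28 enteroendocrine genes (hormones, granins and their regulators) 27 were called higher in GUCY2Chi, and of 24 enterocyte genes 8 were called lower. The summed level of the enterocyte genes was 4545 to 38863 cpm (counts scaled to a common library size) in GUCY2Chi and 72191 to 92815 cpm in GUCY2Cmed. Within a mouse the GUCY2Chi library held 6.30% to 7.53% of the enterocyte level of its GUCY2Cmed partner in mice 2, 7 and 14, but 45.4% and 42.3% in mice 12 and 15. A list of 18 genes of forebrain neurons, a tissue that was not sampled, summed to 41.5 to 1730 cpm over the 10 libraries. The list holds Syn1, which the authors use as a marker of neuropod cells, a kind of enteroendocrine cell. Of the 18 genes, 1 was called higher in GUCY2Chi and 0 lower, so the sum is not specific to that tissue. Its source was not tested.

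The ribosome makes every protein of the cell. Its small subunit reads the mRNA and its large subunit joins the amino acids, and each ribosomal protein is present in a ribosome in a single copy or nearly so, apart from the stalk. Most of their mRNAs begin with a TOP tract, a C followed by a run of C and T, through which mTORC1 signalling controls their translation. In the intestine, ribosome production is high in the dividing cells of the crypt and falls as cells differentiate.

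The first bases of some of these mRNAs are shown because the tract is the feature that the family is known to share at the RNA level. Each line gives 10 bases before and 20 bases from a transcript start of RefSeq (GRCm38.p6), on the transcribed strand. The tract is in capitals where it was found within 5 bases of that start. For Rpl35a and Rps27l the start with a tract is shown, and both genes also have an annotated start without one. Rps6 encodes the phosphorylation target of the S6 kinases, Rplp2 a stalk protein, Rps27 and Rps27l a pair of paralogs, and Rpl35, Rpl35a and Rps19 are among the members with the lowest fold changes given further on. The positions are chr4:86857348-86857377 (minus strand) for Rps6, chr7:141447641-141447670 (plus) for Rplp2, chr3:90213629-90213658 (minus) for Rps27, chr9:66946076-66946105 (plus) for Rps27l, chr2:39005112-39005141 (minus) for Rpl35, chr16:33056472-33056501 (plus) for Rpl35a and chr7:24884582-24884611 (plus) for Rps19.
Rps6: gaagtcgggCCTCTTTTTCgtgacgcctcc
Rplp2: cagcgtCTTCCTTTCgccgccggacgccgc
Rps27: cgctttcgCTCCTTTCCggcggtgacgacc
Rps27l: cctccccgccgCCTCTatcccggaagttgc
Rpl35: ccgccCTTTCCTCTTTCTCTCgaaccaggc
Rpl35a: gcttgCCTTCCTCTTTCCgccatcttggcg
Rps19: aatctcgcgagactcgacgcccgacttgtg

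The tract was searched as a C followed by at least 4 bases that are each C or T, on the transcribed strand. Read from the base of an annotated start, it was found in 14 of the 66 members with a start sequence at hand (21.2%), against 3.01% of 27025 genes. That count includes runs of C and T that opened before the start, as for Rps6. Within 5 bases of a start it was found in 30 of 66 members (45.5%) and in 21.2% of all genes. A missing match, as for Rps19, says only that these letters are not in the window at the annotated start.

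Of the 94 members, 82 passed the filter on low values (over 0.5 cpm in at least 3 libraries) and were tested among 15703 genes. The other 12 were Rps27rt, Rpl24, Rpl3l, Rpl39l, Rpl10l and 7 genes named as pseudogene copies, and 3 of the 12 had no count in any library. The family's levels, which can be compared between genes only per length, were read from the deposited FPKM. The mean FPKM over the 10 libraries had a median of 101 over the tested members and ran from 0.733 to 883.

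At the top stood Rplp0, the base of the stalk that recruits translation factors, at 883 FPKM. It was followed by the large subunit protein Rpl13 at 545, Rpl10, which completes the large subunit late in assembly, at 503, the small subunit protein Rps14 at 477 and Rpl4, which lines the exit tunnel, at 448 FPKM. Several members that every ribosome needs stood far below the others. Rpl24 held 54 counts over all 10 libraries together and Rps10 held 78, while Rpl13a and Rpl23a were at 9.52 and 12.3 FPKM. For Rps10 the rows named as its pseudogene copies held 67.9% of the counts on the gene and its copies, yet gene and copies together stayed far below the typical member. For Rpl24 no row named as a copy was in the table. The reason for these low levels was not tested.

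The members together took a small share of each library. In GUCY2Chi they held 0.765% of all gene counts in mouse 2, 0.800% in mouse 7, 1.24% in mouse 12, 0.849% in mouse 14 and 1.09% in mouse 15 (mean 0.949% ± 0.206, SD, n = 5). In GUCY2Cmed they held 0.793%, 1.05%, 1.37%, 1.36% and 0.843% in the same order (mean 1.08% ± 0.276, SD, n = 5). The groups overlapped widely, and the difference of their means was smaller than the SD of either. The share was lower in GUCY2Chi in mice 2, 7, 12 and 14 and higher in mouse 15. The exact (Clopper-Pearson) 95% intervals, which cover counting error only, were at most 0.0119 percentage points wide, far under the spread between mice. No member was among the 50 most abundant genes.

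**Figure D1:**
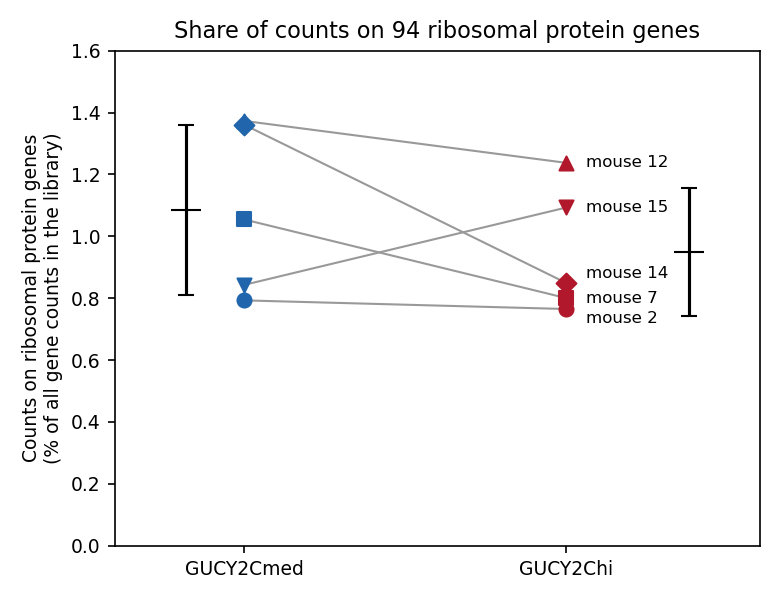
Percent of all gene counts that fell on the 94 ribosomal protein genes (vertical axis) in the GUCY2Cmed and GUCY2Chi libraries, with a line joining the libraries of a mouse number. The black marks beside the points are the mean and SD of 5 libraries, and the groups overlap, from 0.793% to 1.37% in GUCY2Cmed and from 0.765% to 1.24% in GUCY2Chi.

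The first comparison asked which ribosomal protein mRNAs differ between GUCY2Chi and GUCY2Cmed cells. None of the 82 was called higher or lower by edgeR's quasi-likelihood test at a Benjamini-Hochberg adjusted p under 0.01, whereas 13.9% of all genes tested were called higher and 8.79% lower. The values leaned to one side. The log2 fold change of GUCY2Chi over GUCY2Cmed was below 0 for 78 members and above 0 for 4, with a median of -0.44 against 0.09 for all genes. At an unadjusted p under 0.05 there were 14 of 82 members, all lower, against 21.9% of all genes lower. An adjusted p under 0.05 was reached by 6 members (7.32%), also all lower, against 17.6% of all genes lower, so the members were no more often past these thresholds than genes at large.

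Other tools gave few calls of members, though not of genes at large. limma-voom and DESeq2 called 0 members, with 16 and 14 at an unadjusted p under 0.05. Of all 15703 genes they called 2129 and 2960 higher and 1797 and 2235 lower. limma-voom with quality weights for libraries called 5 lower (6.10%), Rps19 and Rps27l among them, against 15.2% of all genes. With these weights 45 of the 82 were at an unadjusted p under 0.05, and the median log2 fold change was -0.69. With the mouse as a block edgeR called 1294 genes higher and 779 lower in place of 2186 and 1381. It called 0 members, with 22 at an unadjusted p under 0.05. limma-voom with the block called 1, lower (1.22%), against 8.80% of all genes, and had 26 at an unadjusted p under 0.05. Leaving out the GUCY2Chi library of mouse 12 gave 4 called lower by edgeR (4.88%), Rps19 and Rps27l among them, against 9.10% of all genes. There 37 members were at an unadjusted p under 0.05. The members past this unadjusted threshold were all lower in each of these settings. The share of all genes past it was counted only in the main fit. Scaling by total counts in place of TMM factors moved the median of all genes from 0.09 to 0.39 and that of the members to -0.17, with the gap between them at -0.53 and -0.55. It raised the share of calls that were higher from 61.3% to 83.9% over all genes, with 2910 called higher and 557 lower. Of the members it called 0, with 2 at an unadjusted p under 0.05. In sorted bulk samples, fewer cells of a type and less RNA per cell cannot be told apart.

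The standard errors of the members had a median of 0.30 on the log2 scale, and 68 of the 82 95% intervals included 0. These libraries therefore leave room for differences in either direction for most members, and an absent call does not show equal levels. Small subunit names had a median log2 fold change of -0.54, with 32 of 33 tested below 0, and large subunit names -0.37, with 46 of 49 below 0. These counts include Rps19bp1 and the copy Rpl9-ps6, and the difference between the subunits was not tested. Only 1 member, Rpl7l1, had groups that did not overlap, with all GUCY2Chi values the lower (1.22% of members), against 13.2% of all genes lower and 16.7% higher without overlap.

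**Figure D2:**
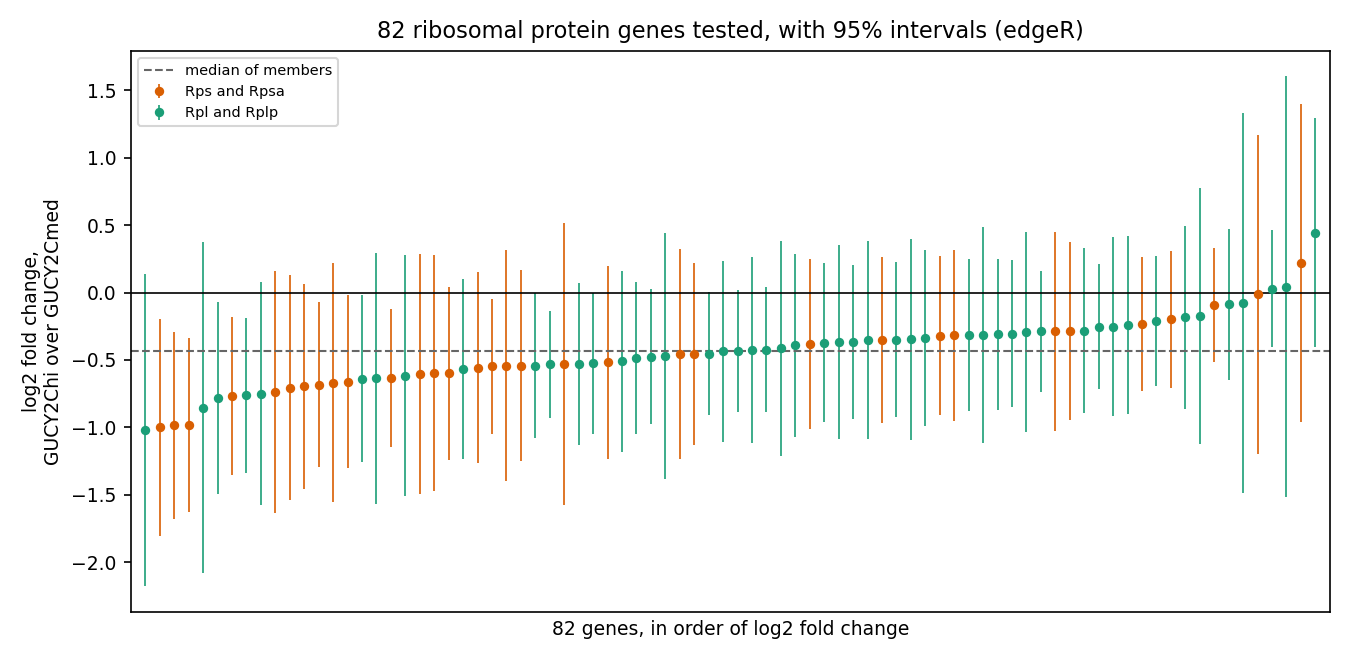
Log2 fold change of GUCY2Chi over GUCY2Cmed (vertical axis) for each of the 82 ribosomal protein genes tested, unnamed and in order of size along the horizontal axis, with 95% intervals from the edgeR fit over 10 libraries. Points lie below 0 for 78 genes, the dashed median is at -0.44, and 68 of the intervals cross 0.

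Among members with at least 5 cpm on average, Rps19 and Rps27l had the lowest fold changes. Rps19, needed to mature the small subunit and mutated in Diamond-Blackfan anaemia, was at 58.6, 60.3, 179, 60.7 and 117 cpm in GUCY2Chi and at 108, 180, 268, 250 and 145 cpm in GUCY2Cmed, each in the order of mice 2, 7, 12, 14 and 15. GUCY2Chi was the lower in 5 of 5 mice, but the groups overlapped through the GUCY2Chi library of mouse 12. The log2 fold change was -1.0 ± 0.37 (SE), with an adjusted p of 0.0493 by edgeR.

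Rps27l, a paralog of Rps27 known as a p53 target, was at 62.7, 70.6, 173, 60.2 and 107 cpm in GUCY2Chi and at 142, 162, 251, 239 and 145 cpm in GUCY2Cmed. It too was lower in GUCY2Chi in each of the 5 mice, and again the library of mouse 12 alone reached into the other group. Its log2 fold change was -0.99 ± 0.32 (SE; edgeR adjusted p = 0.0286).

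Rpl7l1, a paralog of Rpl7 that takes part in making the large subunit, was at 114, 79.3, 126, 95 and 79.2 cpm in GUCY2Chi and at 127, 183, 140, 131 and 132 cpm in GUCY2Cmed. The highest GUCY2Chi value lay just under the lowest GUCY2Cmed value. The log2 fold change was -0.53 ± 0.18 (SE; edgeR adjusted p = 0.0367, and 0.0712 with the mouse as a block). It was, with Rps19 and Rps27l, among the 6 members with an adjusted p under 0.05, and none of the 6 passed 0.01.

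Rpl35, Rpl32 and Rpl35a, also at the low end, did not pass either threshold without the block. Rpl35, at the exit of the tunnel, had a log2 fold change of -0.78 ± 0.33 (SE; edgeR adjusted p = 0.0783), Rpl32 of -0.75 ± 0.38 (adjusted p = 0.140, and 0.0422 with the mouse as a block) and Rpl35a of -0.85 ± 0.56 (adjusted p = 0.260). Rpl35a varied the most of these over the libraries, from 2.35 to 19.9 cpm in GUCY2Chi and from 6.16 to 25 cpm in GUCY2Cmed.

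At the other end, Rpl10a, a large subunit protein near the tRNA exit site, was at 119, 116, 163, 144 and 130 cpm in GUCY2Chi and at 90.1, 122, 166, 168 and 111 cpm in GUCY2Cmed. The groups lay over each other, with a log2 fold change of 0.03 and a 95% interval of -0.41 to 0.47. Rpl10 had -0.09 (interval -0.65 to 0.47) and Rps19bp1 -0.09 (interval -0.51 to 0.33).

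Rpl26, Rpl29 and Rps21 had fold changes near 0 with wide spread. Rpl26, which sits at the tunnel exit, was at 28, 14.1, 11.1, 1.85 and 26.0 cpm in GUCY2Chi and at 37.3, 2.65, 17.3, 16.0 and 5.73 cpm in GUCY2Cmed. Its lowest and highest libraries fell in both groups, and its log2 fold change of 0.04 had an interval of -1.52 to 1.61. Rpl29 ran from 3.16 to 38.1 cpm in GUCY2Chi, with a log2 fold change of -0.08 (interval -1.49 to 1.33), and Rps21 from 2.08 to 14.7 cpm, with -0.01 (interval -1.20 to 1.17). Rpl37a and Rpl13a had -0.17 and -0.18, and their intervals also included 0. The signs of Rpl10, Rpl29, Rps21, Rps19bp1, Rpl37a and Rpl13a turned positive when libraries were scaled by total counts.

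Grouped by role, the members of each listed group had a median below 0 and no call. The stalk proteins Rplp0, Rplp1 and Rplp2 had log2 fold changes of -0.51 ± 0.31, -0.35 ± 0.34 and -0.62 ± 0.41 (SE), with adjusted p values by edgeR of 0.217, 0.468 and 0.264. Rpl5 and Rpl11, which carry the 5S rRNA and bind Mdm2, had -0.42 ± 0.21 and -0.31 ± 0.25. The 9 members around the exit tunnel had a median of -0.37 with 8 below 0, and the 8 around the mRNA channel a median of -0.50 with 8 below 0. Rps6 had -0.20 ± 0.23 and Rpsa, also known as the laminin receptor, -0.55 ± 0.23, with adjusted p values of 0.552 and 0.0801. The 9 listed genes mutated in Diamond-Blackfan anaemia had a median of -0.42, with 8 below 0.

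Within mice the family moved unevenly. The median over members of the log2 difference between the GUCY2Chi and the GUCY2Cmed library was -0.48 in mouse 2, -0.55 in mouse 7, -0.26 in mouse 12, -1.25 in mouse 14 and 0.07 in mouse 15, and over the 5 mice it averaged -0.49 ± 0.49 (SD, n = 5). Mouse 14 was the lowest and mouse 15 the only mouse above 0. Of the 82 members, 69, 67, 76, 80 and 34 were lower in GUCY2Chi in these mice. The shares of all genes lower were 48.6%, 45.3%, 49.7%, 48.7% and 51.3% in the same order. Members lower in GUCY2Chi in 5 of 5 mice numbered 25, in 4 mice 36 and in 3 mice 17. Of all genes, 23.1% were lower in 5 of 5 mice, 10.2% in 4 and 16.3% in 3.

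The mice with the higher enterocyte levels in GUCY2Chi, 12 and 15, were those with the smaller member differences. Without their 4 libraries edgeR gave a median log2 fold change of -0.76, with 42 of 81 members lower at an unadjusted p under 0.05. The share of all genes lower at that threshold was not counted in this setting, and in the main fit it was 21.9%. Without the 4 libraries edgeR called 6 members lower (7.41%), Rpl35, Rps18, Rps19 and Rps27l among them, against 10.7% of all genes. With the libraries of mice 12 and 15 alone, which is 2 against 2, it called 0 members lower, with 0 at an unadjusted p under 0.05, but it called 0 of 13676 genes lower there (0%), so this count says nothing of the members. Their median was -0.04, against 0.04 for all genes. The part of enterocytes in the GUCY2Chi gate in these differences was not tested.

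**Figure D3:**
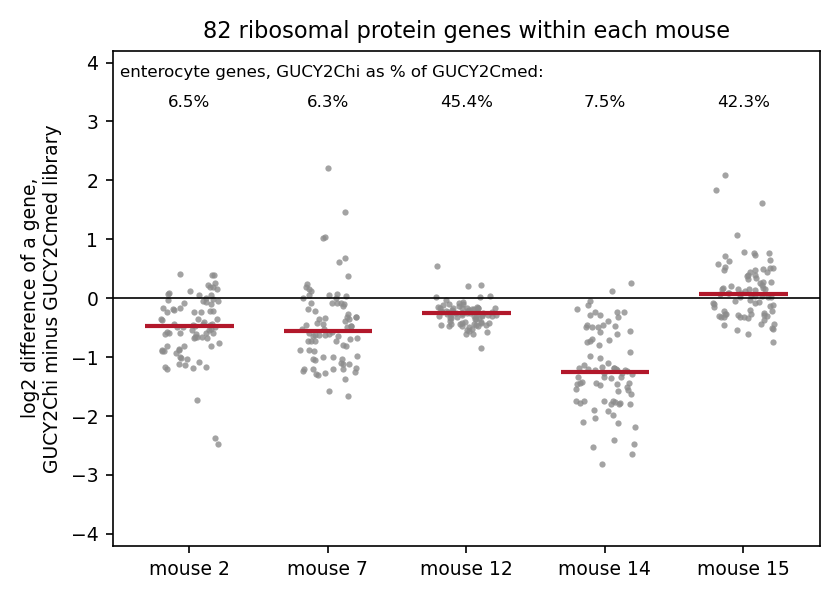
Each grey point is 1 of the 82 ribosomal protein genes tested, placed at its log2 difference between the GUCY2Chi and the GUCY2Cmed library of a mouse (vertical axis), with random sideways scatter and the median as a red line. Medians run from -1.25 in mouse 14 to 0.07 in mouse 15, and the summed enterocyte level of the GUCY2Chi library as a percent of its partner is printed above each mouse.

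The second comparison asked whether the make-up of the family differs, with the summed counts of the members in place of the scaled library total. None of the 82 was called by edgeR, against 15.2% of all genes called higher and 2.03% lower on this scale. At an unadjusted p under 0.05 there were 4 members, and limma-voom called 0 with 4 as well. Relative to the family, Rpl10a had a log2 difference of 0.53 ± 0.21 (SE; edgeR adjusted p = 0.0625). Rps19 and Rps27l had -0.58 ± 0.25 and -0.57 ± 0.24, with adjusted p values of 0.0869 and 0.0762.

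Paralog pairs were compared as ratios of counts within a library. The ratio of Rps27l to Rps27 was 5.61, 4.53, 4.84, 6.30 and 4.56 in GUCY2Chi and 6.09, 10.7, 6.01, 5.54 and 6.72 in GUCY2Cmed, so Rps27l was the more abundant row in every library. The groups overlapped. Rpl22l1 held 0.272 to 0.832 counts for each count of Rpl22 in GUCY2Chi and 0.414 to 0.624 in GUCY2Cmed, and Rpl7l1 held 0.252 to 0.452 for each of Rpl7 against 0.267 to 0.55. The paralogs known from testis and muscle were nearly silent, with 0 counts on Rpl10l, 1 on Rpl39l and 6 on Rpl3l over all libraries. Rpl36al, with 95 counts in all, was higher in GUCY2Chi in 5 of 5 mice, at 0.630 to 1.14 cpm against 0.360 to 0.749, a log2 fold change of 0.44 ± 0.39 (SE; edgeR adjusted p = 0.410).

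Ribosomal protein genes have many processed copies in the genome. The table held 290 rows named as such copies, 155 of them with a count, and together they held 36728 counts, or 2.64% of the counts on the members. A large part fell on copies of Rps2, a protein at the mRNA channel. Rps2-ps13, on chromosome X at 52898588 to 52899469 (GRCm38), held 1210, 15, 3519, 36 and 2961 counts in GUCY2Chi and 1026, 1763, 5472, 41 and 3638 in GUCY2Cmed, in mice 2, 7, 12, 14 and 15.

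The split followed the mouse number and not the gate in 4 of the mice. Both libraries of mouse 14 were nearly without counts on Rps2-ps13 and both of mice 2, 12 and 15 had over 1000, whereas in mouse 7 the GUCY2Chi library had 15 and its partner 1763. Whether the libraries numbered 7 come from the same mouse was not tested. Without both, edgeR called 0 members, with 2 at an unadjusted p under 0.05. Of all 15245 genes tested there it called 1518 higher and only 334 lower, against 2186 and 1381 with all libraries. The absent calls of members therefore say little. The median log2 fold change of the members was -0.40, and the median difference within mice averaged -0.48 ± 0.56 (SD, n = 4). Rps3a3, another copy, held 1090 and 1280 counts in the 2 libraries of mouse 12 and at most 9 in any other library. The copies of Rps2 took 17.5% to 72.7% of the counts on Rps2 and its copies together. Rps2 itself had a log2 fold change of -0.71 ± 0.38 (SE), with an edgeR adjusted p of 0.168, and of 0.0440 with the mouse as a block. With the copies of each member added to it edgeR again called 0 members, with 14 at an unadjusted p under 0.05. Over all genes that fit called 2186 higher and 1381 lower.

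**Figure D4:**
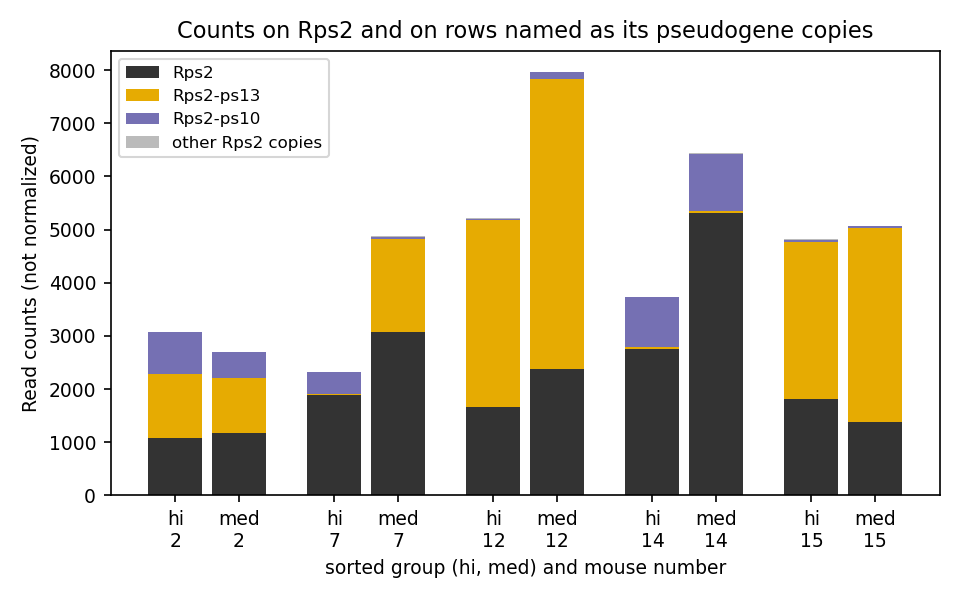
Stacked read counts, not normalized, on Rps2 and on the rows named as its pseudogene copies in each of the 10 libraries, ordered by mouse with GUCY2Chi (hi) left of GUCY2Cmed (med). The share on Rps2-ps13 is high in both libraries of mice 2, 12 and 15 and near 0 in both of mouse 14, while the libraries of mouse 7 differ, with 15 and 1763 counts.

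Transcript length separated the libraries along another line. The 28 shortest members, of 383 to 615 bases by the deposited FPKM, held 17.4% to 18% of the counts on 79 members in the GUCY2Chi libraries of mice 7, 12 and 15, but 13.9% in mouse 2 and 12.1% in mouse 14. In GUCY2Cmed they held 18.4%, 18.2% and 17.0% in mice 2, 12 and 14, but 14.5% in mouse 7 and 14.7% in mouse 15. The 4 libraries with the smaller share came from both groups and were also the 4 with the lowest forebrain sums, 41.5 to 445 cpm against 699 to 1730 cpm in the other 6. Rpl35a, at 829 bases not among the 28 shortest, had both its lowest and its highest value in these 4 libraries. They were 2.35 cpm in the GUCY2Chi library of mouse 2 and 25 cpm in the GUCY2Cmed library of mouse 7. With those 4 libraries alone, 2 against 2, edgeR called 0 members, against 631 of 12664 genes higher and 688 lower. There 26 members were at an unadjusted p under 0.05, a share not counted over all genes in this setting. The median log2 fold change of the members was -0.55. What sets the share of short transcripts was not tested.

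**Figure D5:**
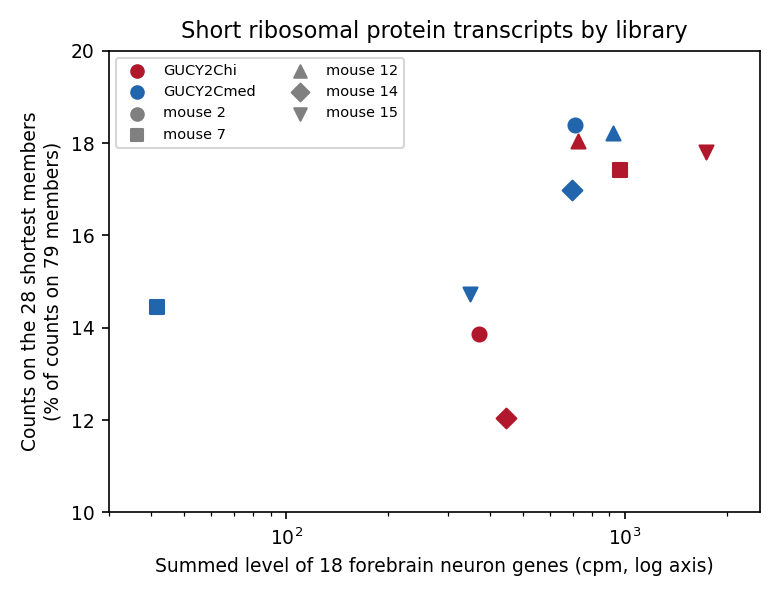
Share of the counts on 79 ribosomal protein genes that fell on the 28 shortest (vertical axis, which does not start at 0) against the summed level of 18 forebrain neuron genes (horizontal log axis, cpm), with a point for each of the 10 libraries. The 4 libraries at 445 cpm or below hold 12.1% to 14.7% and the other 6 hold 17.0% to 18.4%.

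Around the family, other genes of translation were measured in the same fit. Of 77 mitochondrial ribosomal protein genes tested, 15 were called lower and 0 higher by edgeR, with a median log2 fold change of -0.66, and with the mouse as a block 0 were called lower. The count ran from 2 (without the GUCY2Cmed library of mouse 12) to 24 (without the GUCY2Chi library of mouse 12) when 1 library was left out. Among them Mrpl12 was at 75.4 cpm in GUCY2Chi and 200 cpm in GUCY2Cmed, with a log2 fold change of -1.41 ± 0.30 (SE; edgeR adjusted p = 0.00374). Of 70 ribosome biogenesis genes 2 were called lower, Ltv1 (-0.97) and the assembly chaperone Grwd1 (-0.93), and the median was -0.22. With the block neither was called.

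Of 35 initiation factor genes, the cap-binding protein gene Eif4e2 (-0.77) was the only one called, lower, and it was not called with the block. None of 10 elongation factor genes was called, with a median of -0.19, and Eef1a1, which brings tRNAs to the ribosome, had -0.14. Of 9 genes listed as ribosome partners with TOP mRNAs, 0 were called lower and 1 higher, Vim (6.57). The lowest of them was Fau, which encodes a small subunit protein fused to a ubiquitin-like domain and falls outside the naming rule. Fau had -1.26 ± 0.38 (SE), with an edgeR adjusted p of 0.0207. It was lower in GUCY2Chi in 5 of 5 mice, as were 23.1% of all genes. Of 28 genes of mTORC1 and of TOP control 1 was called higher, the GTPase gene Rraga (0.87), and 2 lower, Sesn1 (-1.63) and Rragd (-1.62), and with the block Rraga was not called. Of 10 genes of the Myc network, which holds both Myc, a driver of ribosome production, and its antagonists, 2 were called lower, the antagonist gene Mxi1 (-1.56) and Mlx (-0.98), a partner of several of its proteins. Myc itself had -0.89 with an adjusted p of 0.0138. The 20 proliferation genes summed to 258 to 761 cpm in GUCY2Chi and 768 to 1476 cpm in GUCY2Cmed, without overlap. The part of dividing cells in the values of the ribosomal protein genes was not tested.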

How the data were processed

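RNA of 10 libraries (5 per group) was measured by RNA-seq with a NEBNext Ultra II kit. Read counts per gene, not normalized, were deposited by the authors. FPKM, also deposited by the authors, were used for levels between genes and for the transcript lengths they imply. Per the labels, reads were aligned with STAR, and limma 3.40.6 and edgeR 3.26.8 are named in the submitters' processing notes. The counter and its strand setting are not given in the sources used here. The labels name mm9, but all 94 members overlapped their RefSeq position in GRCm38.p6 and 4 of 90 matched symbols did in NCBIM37, so positions are given as GRCm38. The authors' comparison columns (fold changes and p-values) and 10 further per-sample columns were not used.

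Genes over 0.5 cpm in at least 3 libraries were tested with edgeR 4.0.16 (quasi-likelihood, TMM, group only, R 4.3.3) and Benjamini-Hochberg adjustment over all genes tested, called under 0.01. limma 3.58.1 and DESeq2 1.42.0, other scalings and filters, a replicate block and omitted libraries were alternatives. Differences within a mouse used log2(cpm + 0.5). The biological coefficient of variation was 0.458. Depth was 10903958 to 15307932 counts a library.

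The scripts were tested on simulated counts. Signs and sizes were recovered, but differences as large as the largest ones of the members were seldom called by edgeR. A first version of this test, which asked for more calls than edgeR made, failed, and larger differences were then added and the required number of calls lowered.

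The same mice were sorted into both gates per the labels, and the numbers were read as mice. Xist was counted in both libraries of a number or was nearly absent from both. Deviations from group means correlated between libraries of a number at r = 0.05, -0.076, 0.307, 0.033 and 0.167 over 8143 genes, and 1 of 5 numbers matched itself best, so these correlations do not show the pairing, which rests on the labels.

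The members and lists were chosen with earlier results of these data known. Named were members of listed roles and paralog pairs, those of at least 5 cpm with the 8 highest and 8 lowest fold changes, the 5 highest in FPKM, and in each other list genes among the 3 highest and 3 lowest. Rpl24, Rpl23a, Mlx, Rps18, Rps3a3 and Rps2-ps13 were chosen after their values were seen. A few members that the rule names are not reported here.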

Additional observations from a re-analysis of the deposited data

Results flagged for a closer look

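Of 84 groups of 5 libraries examined with Dixon's test, 2 had a library far from the others, and chance alone flags about 1 in 20 groups. Both were the GUCY2Cmed library of mouse 7. Rpl7l1 stood at 183 cpm there against 127 to 140 cpm in the other GUCY2Cmed libraries. The ratio of Rps27l to Rps27 counts stood at 10.7 there against 5.54 to 6.72. That library also had the lowest forebrain sum, 41.5 cpm, and a share of short members of 14.5%.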

How the results depend on the processing

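The count of 0 members called higher held under every alternative run. The count called lower was 0 except with an adjusted p under 0.05 (6), limma-voom with quality weights (5), limma-voom with the replicate block (1), without the libraries of mice 12 and 15 (6) and without the GUCY2Chi library of mouse 12 (4). It ranged from 0 to 4 when 1 library was left out, and the median from -0.63 to -0.22. edgeR with the replicate block gave 0 and a median of -0.46, and the block changed no other call of a member at 0.01. Relative to the family total it was 0 throughout. The GUCY2Chi share of counts moved to 1.18% with the 20 most abundant other genes left out of the total. A smaller total raises the share in either group, so this value cannot be set against the GUCY2Cmed share of the full total. When 1 library was left out, the GUCY2Chi share ranged from 0.877% to 0.995% and that of GUCY2Cmed from 1.01% to 1.16%.

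Signs near 0 turned, and without mice 2, 7 and 14 also signs of members further from 0, none past the threshold. Among the latter were Rpl35a and Rplp2, which had -0.85 and -0.62 in the main fit. Rps21 had 0.023 without the 50 most abundant genes, 0.0013 with DESeq2, 0.00068 with RLE factors, 0.016 without a filter and 0.031 with upper-quartile factors. With at least 10 counts in every library, Rpl10 had 0.025, Rps19bp1 0.039, Rpl29 0.085 and Rps21 0.12. With quality weights Rpl10a had -0.052, Rps10 -0.12 and Rpl26 -0.18. Without TMM, Rpl22l1 had 0.047, Rps6 0.068, Rpl13a 0.071, Rpl37a 0.091, Rpl10 0.17, Rps19bp1 0.19, Rpl29 0.25 and Rps21 0.28. Without mice 12 and 15, Rpl10a had -0.014 and Rpl26 -0.34. Without mice 2, 7 and 14, Rpl22 had 0.0069, Rplp2 0.042, Rpl11 0.13, Rps19bp1 0.14, Rplp1 0.15, Rpl22l1 0.24, Rpl36a 0.25, Rpl37a 0.33, Rpl35a 0.37, Rps21 0.65 and Rpl29 0.82. Without the 6 libraries highest in forebrain genes, Rps19bp1 had 0.015, Rpl13a 0.072 and Rpl10 0.26. Without both libraries numbered 7, Rps19bp1 had 0.053, Rpl26 -0.14 and Rps10 -0.20. When 1 library was left out, Rpl37a ranged from -0.62 to 0.11, Rpl10 from -0.21 to 0.050, Rpl29 from -0.70 to 0.27, Rps21 from -0.36 to 0.28, Rpl10a from -0.049 to 0.17, Rpl26 from -0.23 to 0.69, Rps10 from -0.020 to 0.50 and Rps19bp1 from -0.18 to 0.015. The cause was not tested. Leaving out the libraries highest in forebrain genes, leaving out those numbered 7 and adding pseudogene copies were chosen after seeing the data.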
